A study of Mus musculus with 2 samples.

Results

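The mitochondrial solute carriers are the genes whose symbol begins with Slc25a, and 44 of the 55536 annotated genes met that rule. It left out 4 further symbols, namely Slc25a4, Slc25a5, Slc25a20 and a pseudogene. Total RNA from the hearts of 2 female B6CASTF1/J mice, an F1 hybrid strain of C57BL/6 and CAST parents, was sequenced at 2 months of age. Each animal gave 1 library from 300 ng of RNA, with ribosomal RNA reduced and ERCC spike-ins, synthetic transcripts of known amount, in the library. Both animals belong to 1 group with no treatment named (n = 2), so the data give the level of each carrier in this tissue and how far 2 animals of 1 kind differed. Gene reads numbered 41862417 in animal 1 and 41790009 in animal 2.

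Carriers of this family sit mostly in the inner mitochondrial membrane, which is otherwise closed to charged metabolites, and each exchanges or co-transports a small set of solutes between the cytosol and the matrix. The heart makes most of its ATP by oxidative phosphorylation, so it depends on carriers for phosphate, adenine nucleotides and the reducing equivalents of glycolysis. The phosphate carrier is known to exist in forms that differ in the third exon, with the form named A in human heart and skeletal muscle and the form named B more widespread.

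Slc25a3, which encodes the phosphate carrier and also brings copper into the matrix, was the most abundant of the 44 and lies on the minus strand of chromosome 10 from 91116574 to 91124059 in mm10. The choice between its alternative versions of the third exon is shown here because the transcript results turn on it. Both are mm10 reference sequence on the minus strand, written 5′ to 3′, and capitals mark bases that differ between them or have no partner in the alignment.
Slc25a3 upstream exon, chr10:91122207-91122331: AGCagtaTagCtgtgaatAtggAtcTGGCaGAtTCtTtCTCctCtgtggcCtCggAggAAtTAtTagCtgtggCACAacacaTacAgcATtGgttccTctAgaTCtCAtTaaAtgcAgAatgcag
Slc25a3 downstream exon, chr10:91121922-91122043: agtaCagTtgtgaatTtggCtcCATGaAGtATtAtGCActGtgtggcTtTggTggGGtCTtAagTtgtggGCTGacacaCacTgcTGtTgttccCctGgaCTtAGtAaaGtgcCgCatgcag
The upstream exon has 125 bases and the downstream exon 122, and both are coding over their whole length. Of the 122 aligned bases 77 were identical (63.1%).

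Levels are given in TPM, a length-corrected relative abundance taken from the deposited gene tables. The 44 carriers summed to 1593 TPM in animal 1 and 1864 TPM in animal 2 (1728 ± 191, SD, n = 2). TPM ran lower in animal 1 for most genes. The median log2 ratio of animal 1 over animal 2 was -0.20 over the carriers tested below and -0.22 over all 16133 genes tested. The SDs include this shift of scale. As a share of the TPM of nuclear protein-coding genes the carriers held 0.415% in animal 1 and 0.413% in animal 2. Reads were seen for 42 of the 44 carriers. The carriers at 1 TPM or more in both animals numbered 35 (79.5%), against 50.0% of the 22015 nuclear protein-coding genes. A mean of 10 TPM or more was reached by 14 carriers (31.8%), against 23.0% of protein-coding genes, and 100 TPM or more by 2 carriers (4.55%), against 2.52%. The median carrier had 5.44 TPM and the median protein-coding gene 1.16 TPM. Among genes at 1 TPM or more the median was 7.59 TPM for carriers and 8.84 TPM for all protein-coding genes.

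**Figure D1:**
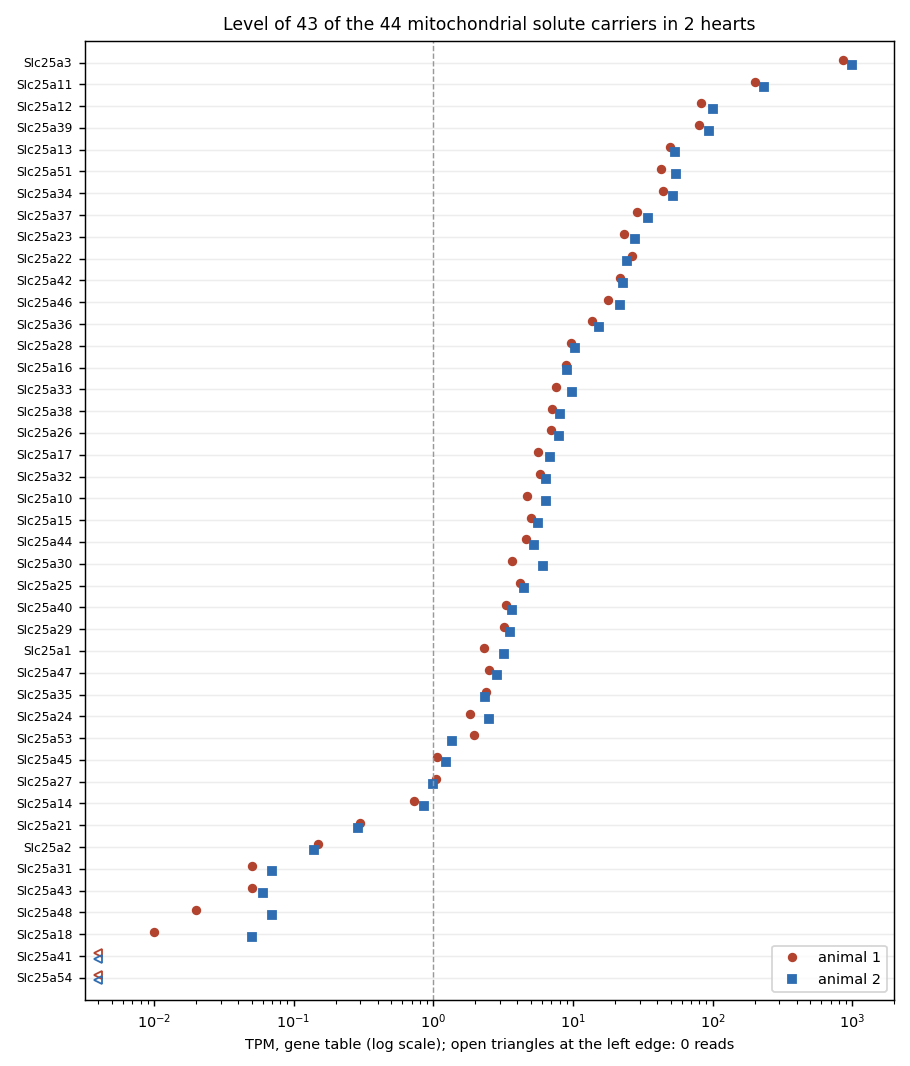
TPM of 43 of the 44 carriers in animal 1 (circles) and animal 2 (squares) on a log axis, ordered by mean, with a dashed line at 1 TPM. Slc25a3 stands above all others at 852 and 1002 TPM, 9 carriers average below 1 TPM, and open triangles mark the 2 carriers with 0 reads.

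The distribution within the family was steep. Slc25a3 alone held 53.5% of the carriers' TPM in animal 1 and 53.8% in animal 2. With Slc25a11 and Slc25a12 added, the 3 highest carriers held 71.4% and 71.7%. Within the wider family, with Slc25a4, Slc25a5, Slc25a20, 3 uncoupling proteins and Mtch1 and Mtch2 added, the 44 carriers held 41.6% in animal 1 and 42.1% in animal 2, and Slc25a4, the ADP/ATP carrier of heart, had 1691 and 1927 TPM. The phosphate carrier had 852 TPM in animal 1 and 1002 TPM in animal 2, from 40104 and 42332 reads, and ranked 42 among nuclear protein-coding genes. Rescaled to the TPM of nuclear protein-coding genes alone, its level was 2221 in both animals. The phosphate and ATP-Mg group, which loads the matrix with phosphate or with adenine nucleotide, summed to 959 ± 110 TPM over 5 genes, and Slc25a3 made up 96.7% of it. Its other members are ATP-Mg/phosphate carriers, of which Slc25a23, Slc25a24 and Slc25a25 are gated by calcium. Slc25a23 led these with 23.0 TPM in animal 1 and 27.9 TPM in animal 2. It was 12.6 times its paralog Slc25a24 in animal 1 and 11.1 times in animal 2. The fifth, Slc25a41, had 0 reads in both animals, where 3 reads, the limit that a count of 0 allows, would be 0.0735 TPM in animal 1 and 0.0818 TPM in animal 2.

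The malate-aspartate shuttle carries the electrons of cytosolic NADH into the matrix, and its 3 carriers summed to 361 ± 37.8 TPM. Slc25a11, the oxoglutarate/malate carrier, encoded on chromosome 11 from 70644196 to 70647479, had 202 TPM in animal 1 and 234 TPM in animal 2. Slc25a12, also named aralar and encoded on chromosome 2 from 71271063 to 71367749, which exchanges aspartate for glutamate under control of calcium, had 82.7 TPM in animal 1 and 100 TPM in animal 2. Slc25a13, also named citrin and the paralog of aralar best known from liver, had 49.7 TPM in animal 1 and 53.4 TPM in animal 2. By gene level aralar thus exceeded citrin 1.67 times in animal 1 and 1.88 times in animal 2. The second quantification described below gave 1.84 times on average. Transcripts not annotated protein_coding held 90.1% of aralar and 3.81% of citrin by the first transcript table, and 86.8% and 2.70% by the second. The leading protein-coding transcript was lower for aralar. Slc25a12-206 averaged 9.05 TPM and Slc25a13-203 48.2 TPM by the first table, and 14.2 and 50.0 TPM by the second. The 4 soluble enzymes of the shuttle summed to 2265 ± 266 TPM and all were at 1 TPM or more in both animals. Mdh1, the cytosolic malate dehydrogenase, had 843 TPM in animal 1 and 1018 TPM in animal 2. The 3 genes listed for the alternative glycerol phosphate shuttle, Gpd1, Gpd2 and the Gpd1-like gene Gpd1l (mean 15.4 TPM), summed to 41.6 ± 4.30 TPM. Other mitochondrial transporters, a list of 13 with the pyruvate carrier and the porins, were all at 1 TPM or more and summed to 1342 ± 120 TPM.

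Carriers of nucleotides, coenzymes and glutathione were the broadest group, with 11 of 11 members at 1 TPM or more in both animals and a sum of 229 ± 26.5 TPM. Slc25a39, which takes glutathione into mitochondria, led with 80.03 TPM in animal 1 and 93.87 TPM in animal 2. It was 24.3 times its paralog Slc25a40 in animal 1 and 25.9 times in animal 2, and 46.1 and 40.02 times in the second quantification. Slc25a51, which imports NAD, had 42.5 TPM in animal 1 and 54.2 TPM in animal 2. Slc25a42, a carrier of coenzyme A, had 21.7 TPM in animal 1 and 22.7 TPM in animal 2. Its level was 2.45 times that of Slc25a16, also linked to coenzyme A, in animal 1 and 2.53 times in animal 2, but 1.56 and 1.42 times in the second quantification. Slc25a36, a pyrimidine nucleotide carrier, had 13.6 TPM in animal 1 and 15.3 TPM in animal 2.

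Iron reaches the matrix through the mitoferrins. Mitoferrin 1, Slc25a37, which is known for its role in developing red cells, had 28.5 TPM in animal 1 and 34.5 TPM in animal 2. It was 2.94 times Slc25a28, the more widespread mitoferrin 2, in animal 1 and 3.37 times in animal 2. Erythroid genes were abundant in the same libraries: the 6 erythroid markers summed to 43216 TPM in animal 1 and 51833 TPM in animal 2, nearly all of it globin. Alas2, the first enzyme of haem synthesis in red cells, had 198 TPM in animal 1 and 236 TPM in animal 2. The 8 genes of mitochondrial iron use were all at 1 TPM or more in both animals and summed to 664 ± 86.6 TPM. Among them are Fech, which puts iron into haem, and again Alas2, which made up 32.7% of the sum. Globin genes are near-identical copies whose split is uncertain, and the part of red cell RNA in the Slc25a37 level was not tested. In bulk tissue the number of cells of a type and the RNA per cell cannot be told apart.

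Groups do not overlap, so Slc25a12 and Slc25a13, which exchange aspartate for glutamate, are counted with the malate-aspartate shuttle. The other amino acid carriers summed to 46.8 ± 0.509 TPM, with 5 of 8 at 1 TPM or more in both animals. Slc25a22, a glutamate carrier, made up 54.3% of the group with 26.3 TPM in animal 1 and 24.5 TPM in animal 2, the only carrier of 10 TPM or more that had the higher TPM in animal 1. The other glutamate carrier, Slc25a18, had 1 read in animal 1 and 3 reads in animal 2. The ornithine carriers Slc25a15 and Slc25a2 also lay far apart, with 5.02 and 0.15 TPM in animal 1 and 5.57 and 0.14 TPM in animal 2. The oxoglutarate/malate carrier Slc25a11 is likewise counted with the shuttle. Di- and tricarboxylate carriers outside the shuttle were low, with a sum of 8.61 ± 1.85 TPM. Slc25a10, the dicarboxylate carrier, led them with 4.71 TPM in animal 1 and 6.44 TPM in animal 2. The citrate carrier Slc25a1, which exports citrate for fatty acid synthesis, had 2.29 TPM in animal 1 and 3.19 TPM in animal 2. Genes related to the uncoupling proteins summed to 6.71 ± 1.77 TPM, led by Slc25a30 with 3.68 TPM in animal 1 and 6.11 TPM in animal 2. The reads of Slc25a30 differed less, at 418 in animal 1 and 487 in animal 2. In the library test described below its scaled ratio was 0.905 and it was not called (adjusted p = 0.423, exact binomial test).

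Of the 7 carriers for which no transported solute is given here, 5 were at 1 TPM or more and Slc25a34 made up 85.8% of their sum. Slc25a34 had 44.03 TPM in animal 1 and 51.75 TPM in animal 2, ranked 1135 among nuclear protein-coding genes and has a single annotated transcript. Slc25a46, which acts in the outer membrane in mitochondrial dynamics rather than in transport, had 17.8 TPM in animal 1 and 21.7 TPM in animal 2. Slc25a31, the ADP/ATP carrier of testis, had 4 reads in animal 1 and 5 in animal 2. The testis markers Prm1 and Tnp1 were at 0 in both. Slc25a54 had 0 reads in both animals, where 3 reads would be 0.0540 TPM in animal 1 and 0.0601 TPM in animal 2. The other carriers below a mean of 10 TPM are shown in the plot of carrier levels.

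**Figure D2:**
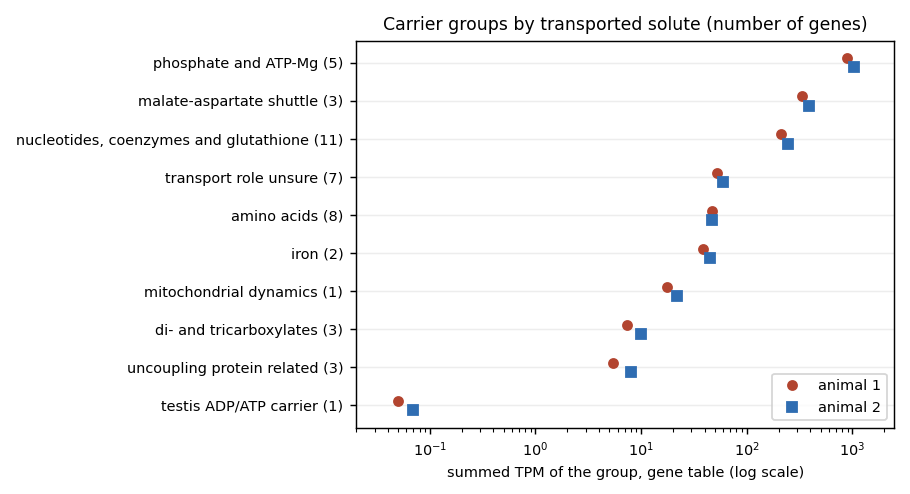
Summed TPM of each carrier group in animal 1 (circles) and animal 2 (squares) on a log axis, with the number of genes in brackets. The phosphate and ATP-Mg group is highest at 881 and 1037 TPM, followed by the malate-aspartate shuttle at 334.5 and 387.9 TPM.

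The order of the carriers was firm at the top and loose in the middle. Of the 43 pairs of neighbours in the order of mean TPM, 28 kept their order in both animals and 20 also in both quantifications. Slc25a3, Slc25a11 and Slc25a12 kept their order in both animals and both quantifications, with Slc25a3 at 4.21 times Slc25a11 in animal 1 and 4.28 times in animal 2, and Slc25a11 at 2.45 and 2.33 times Slc25a12. Slc25a12 and Slc25a39 changed order between quantifications. Slc25a51 changed order between animals with Slc25a13 and with Slc25a34, as did Slc25a23 with Slc25a22, and these pairs could not be ranked. Slc25a13 lay above Slc25a34 in both animals and both quantifications.

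The 2 libraries were compared gene by gene with a two-sided exact binomial test on reads, scaled by the trimmed mean of M values and adjusted by Benjamini-Hochberg over 16133 genes with at least 20 reads. With 1 library per animal the test speaks of these libraries and not of a condition, and it knows no error but that of counting. Of the 37 carriers tested 3 differed (8.11%), against 11.3% of all genes tested, a share near that background. All 3 were higher in animal 1, where 4.75% of all genes were, and 0 carriers were called higher in animal 2, against 6.60% of all genes. At an unadjusted p under 0.05 there were 5 carriers (13.5%), against 21.9% of all genes. The direction depended on the scaling: total gene reads called 10 carriers, 9 of them higher in animal 2, and spike-in reads called 4, of which 2 were higher in animal 2. Slc25a22, on chromosome 7 from 141429744 to 141437892, had 1927 reads in animal 1 and 1730 in animal 2, which gave a scaled ratio of 1.17 (95% interval 1.10 to 1.25, adjusted p = 2.91e-05, exact binomial test). Slc25a42, on chromosome 8 from 70184340 to 70212305, had 2322 reads in animal 1 and 2190 in animal 2, which gave a ratio of 1.12 (1.05 to 1.19, adjusted p = 0.00278, exact binomial test). Slc25a13, on chromosome 6 from 6041218 to 6217173, had 5324 reads in animal 1 and 5265 in animal 2, which gave a ratio of 1.07 (1.03 to 1.11, adjusted p = 0.0119, exact binomial test). With libraries scaled by total gene reads the calls of Slc25a42 and Slc25a13 were lost (adjusted p = 0.177 and 0.812), and with spike-in scaling that of Slc25a13 was (adjusted p = 0.104). No carrier reached 1.5-fold, against 2.52% of all genes, or 2-fold, against 1.38%, and the ratios of the 37 ran from 0.840 to 1.27.

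The carriers' median log2 ratio was 0.00 to 2 decimals, as was that of all genes tested, and the quartiles were -0.09 and 0.09 for carriers and -0.11 and 0.12 for all genes. Within 1.2-fold lay 36 of the 37 carriers (97.3%), against 75.3% of all genes. The carriers carried more reads, with a median of 1086 over both libraries against 719. Among genes with at least 500 reads all 27 carriers and 93.1% of 9146 genes lay within 1.2-fold. Slc25a3, with the most reads, had a ratio of 0.999 (0.986 to 1.01).

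**Figure D3:**
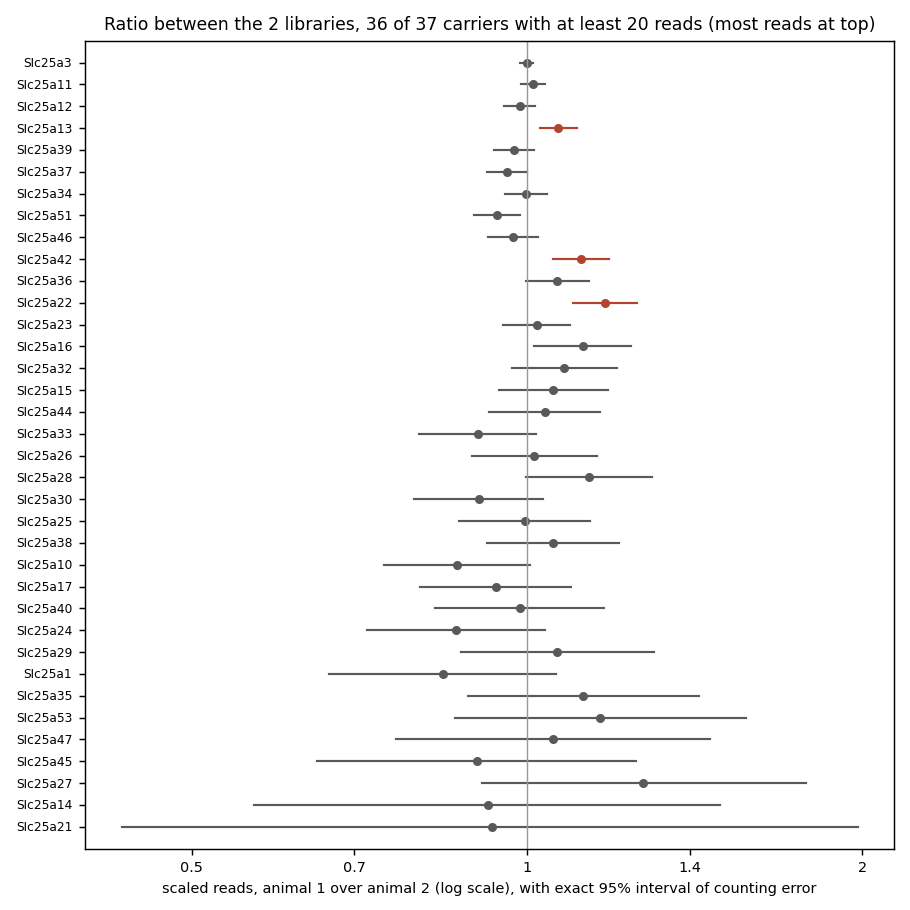
Scaled reads in animal 1 over animal 2 for 36 of the 37 carriers with at least 20 reads, on a log axis, with exact 95% intervals of counting error and the carriers with the most reads at the top. The 3 carriers that differed are in red at 1.07 to 1.17, and intervals widen to 0.433 to 1.98 for Slc25a21.

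Markers of heart muscle were abundant, as the tissue label says, and markers of several cell types differed between the libraries. The 5 cardiomyocyte markers, Myh6 among them at 7602 TPM in animal 1 and 8371 TPM in animal 2, were all high. All 3 endothelial and all 3 fibroblast markers were called lower in animal 1, with ratios of 0.873 to 0.920 and 0.786 to 0.924, and 2 of 3 white adipocyte markers were too, with Adipoq at 2.04 TPM in animal 1 and 6.0 TPM in animal 2. Of the cardiomyocyte markers 3 of 5 were called higher in animal 1, at 1.02 to 1.05. Over all genes tested 11.3% were called in either direction. The marker calls given here are those with libraries scaled by the trimmed mean of M values. Scaling by total gene reads moved the median log2 ratio of all genes by -0.08, and ratios this close to 1 depend on that choice. The summed level in animal 1 and animal 2 was 99.2 and 132 TPM for endothelial, 166 and 218 TPM for fibroblast and 5.04 and 11.6 TPM for white adipocyte markers. Of the 6 erythroid markers 4 were called, 1 higher in animal 1 (Hbb-bs, ratio 1.03) and 3 lower, with Hba-a2 at 0.922. Single members of other lists were also called lower in animal 1. These were Ucp1, of 3 brown adipocyte markers tested (0.669), and Acta1, of 2 skeletal muscle markers tested (0.931). In the neuron list Syt1 was the only marker tested (0.264, from 6 reads in animal 1 and 24 in animal 2). The other brown adipocyte and skeletal muscle markers tested were not called. Liver markers summed to 0.81 and 0.58 TPM and neuron markers to 0.13 and 0.57 TPM. The part of these differences in the ratios of Slc25a22, Slc25a42 and Slc25a13, or in the level of Slc25a37, was not tested.

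The transcripts of each library were quantified by the authors in a second table as well, and its levels are given beside those of the gene table. Over 10992 protein-coding genes at 1 TPM or more the gene table lay at a median log2 ratio of -0.26 to the second table. Relative to that shift the 35 carriers compared ranged from -0.59 to 0.44, with a median of -0.01. Past 1.5-fold lay 1 carrier (2.86%), against 6.34% of all genes compared. That was Slc25a16, with 8.84 TPM in animal 1 and 8.98 TPM in animal 2 in the gene table and 15.9 and 16.1 TPM in the second table. Slc25a51 was at the other end, with 42.5 TPM in animal 1 and 54.2 TPM in animal 2 in the gene table and 39.9 and 45.0 TPM in the second. The ratio of Slc25a3 to Slc25a11 was 4.21 in animal 1 and 4.28 in animal 2 in the gene table and 3.24 and 3.15 in the second.

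**Figure D4:**
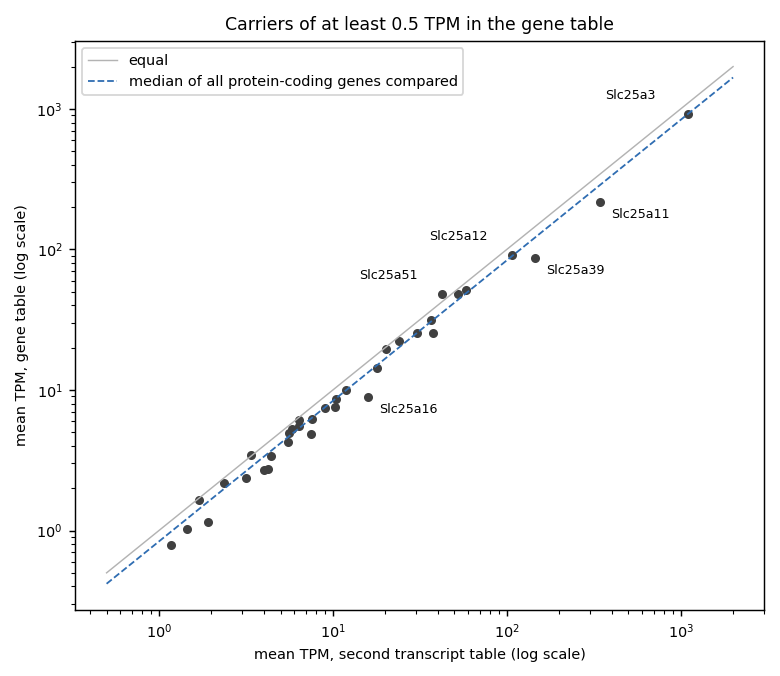
Mean TPM over 2 animals of 35 of the 36 carriers of at least 0.5 TPM in the gene table (vertical) against the second transcript table (horizontal), both on log axes, with the line of equality and a dashed line at the median of all protein-coding genes compared. Most carriers lie along the dashed line, and Slc25a16 lies below it by 0.59 on the log2 scale and Slc25a51 above it by 0.44.

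The first transcript table shares its read alignments with the gene table, and the second does not. The 44 carriers had 248 annotated transcripts, and 38 carriers had more than 1. Of the 14 carriers at a mean of 10 TPM or more, 13 had several, and the same transcript was the most abundant in both quantifications in 10. It held 80% or more of the gene's TPM in 7 by the first transcript table and in 3 by the second, so the second table spread levels over more transcripts.

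For Slc25a3 both quantifications put most of the level on transcripts with the upstream exon printed above. By the first table these had 786 TPM in animal 1 and 925 TPM in animal 2, or 92.3% ± 0.0042 of the gene. By the second table they had 869 TPM in animal 1 and 876 TPM in animal 2, or 79.3% ± 1.91. Transcripts with the downstream exon had 59.1 TPM in animal 1 and 70.6 TPM in animal 2 by the first table (6.99% ± 0.081), and 189 TPM in animal 1 and 222 TPM in animal 2 by the second (18.7% ± 1.57). The second table's share came mainly from Slc25a3-203, at 158 TPM in animal 1 and 194 TPM in animal 2 there and 3.64 and 5.25 TPM in the first table. Slc25a3-201, another transcript with the downstream exon, had 55.4 TPM in animal 1 and 65.4 TPM in animal 2 by the first table. The share of the upstream exon differed less between the animals of either table than between the tables.

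For Slc25a12, chosen for its transcripts after its values were seen, the most abundant transcript in both quantifications was Slc25a12-207, which the annotation types as a target of nonsense-mediated decay, a pathway that destroys messages with an early stop codon. It had 60.3 TPM in animal 1 and 74.5 TPM in animal 2 in the first table, 73.5% ± 0.893 of the gene, and 62.3% ± 1.01 in the second. The protein-coding Slc25a12-206 had 8.64 TPM in animal 1 and 9.46 TPM in animal 2 in the first table, 9.93% ± 0.731 of the gene, and 13.2% ± 0.564 in the second. The annotated coding sequence has 261 bases in Slc25a12-207 and 2031 in Slc25a12-206. Slc25a12-207 lacks a coding exon of 116 bases, the fourth of Slc25a12-206, whose mm10 sequence on the minus strand is shown because its absence sets these transcripts apart.
Slc25a12 exon 4, chr2:71333605-71333720: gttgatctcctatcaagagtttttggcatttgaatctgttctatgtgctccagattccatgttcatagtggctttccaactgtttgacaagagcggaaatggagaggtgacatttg
The transcripts also differ at the 3′ end, where the last exon has 664 bases in Slc25a12-207 and 4291 in Slc25a12-206. Which of these differences drew the reads was not tested. Slc25a12-201, a short processed transcript that holds the fourth exon, took 12.2% ± 0.982 in the first table and 0.823% ± 0.0577 in the second.

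By type, transcripts not annotated as protein_coding held 7.65% ± 0.174 of the carriers' TPM by the first table and 10.5% ± 0.266 by the second. Over all nuclear protein-coding genes at 1 TPM or more the share was 12.9% ± 0.323 and 16.1% ± 0.298. Without Slc25a12 the carriers' share was 3.04% ± 0.354 by the first table and 6.52% ± 0.132 by the second. The share was over 50% by both tables in 3 carriers, namely Slc25a12 (90.1% by the first table and 86.8% by the second), Slc25a53 (89.6% and 83.7%) and Slc25a47 (76.6% and 81.2%). These carriers were picked by that share, after their values were seen, and for Slc25a53 and Slc25a47 it rests on 96 and 79 reads in animal 1 and 87 and 79 reads in animal 2. Slc25a43, with 2 reads in each animal, passed 50% by the second table alone (94.7%).

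**Figure D5:**
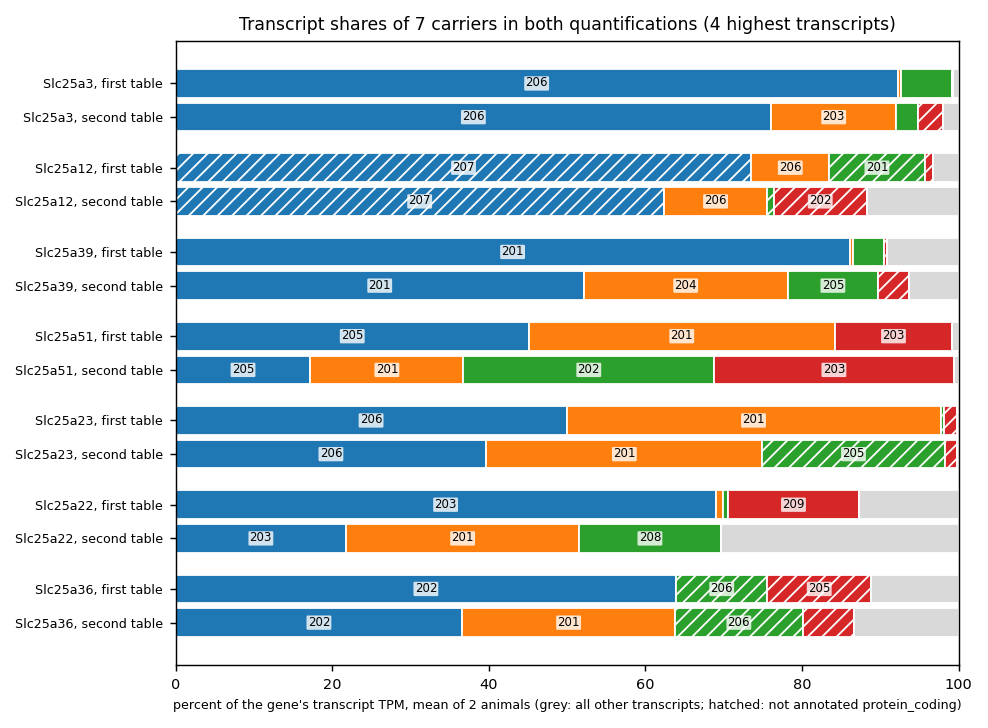
Percent of each gene's transcript TPM on its 4 highest transcripts in the first and second transcript tables, mean of 2 animals, for 7 carriers, with numbers naming the transcript, grey for all others and hatching for transcripts not annotated protein_coding. Slc25a3-206 holds 92.2% in the first table and 76.1% in the second, and Slc25a22-203 holds 69.0% and 21.8%.

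In 5 other abundant carriers the leading transcript changed between the quantifications or held under 60% of the gene in at least 1 of them. Slc25a51-205 held 45.1% of its gene in the first table, while in the second table Slc25a51-202 led with 32.0% ± 19.8, which differed widely between the animals. Slc25a22-203 held 69.0% ± 6.25 in the first table and Slc25a22-201 led the second with 29.8% ± 4.56. Slc25a39-201 led in both, with 86.1% and 52.1%, as did Slc25a23-206 with 49.9% and 39.7% and Slc25a36-202 with 63.9% and 36.6%. Of these 5 carriers, Slc25a51 and Slc25a22 had a different leading transcript in the 2 tables.

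Exons of 14 carriers overlapped exons of another annotated gene. Slc25a35 was the only carrier with more than 20% of its exon bases shared, at 31.3% with Rangrf on the opposite strand. Rangrf had 777 reads in animal 1 and 832 in animal 2, and Slc25a35 had 147 reads in animal 1 and 138 in animal 2. No source used here says that counting took strand into account, and without strand the reads of such partners cannot be told apart.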

How the data were processed

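Heart RNA of 2 animals was quantified by the authors in 3 tables per library. The gene table and the first transcript table give expected counts, unnormalised estimates of reads, with columns laid out as RSEM writes them, per the file headers. Per the deposited readme they come from alignments to the transcriptome, with mm10 and annotation M21. The authors' TPM covers all entries of a table and its spike-ins. Estimated counts and TPM of the second transcript table follow kallisto's columns, per its deposited header. The sources used here give no tool versions, filters or use of strand.

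Carriers were found by symbol and joined on gene identifier, and coordinates, transcript types and exon sequences came from GENCODE M21 on mm10, the C57BL/6J reference. How CAST alleles of the hybrid affected counts was not tested. Entries with no gene name (26248) held 4 reads in animal 1 and 2 in animal 2 and were left out. Depth, given with the results, set the limit of a count of 0, 3 reads, at 0.0717 CPM in animal 1 and 0.0718 CPM in animal 2. No molecular identifiers are named, so limits and intervals describe the error of counting alone. That the animals are separate comes from the labels' biological replicate numbers.

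For the library comparison expected counts were rounded, genes with at least 20 reads over both libraries were kept (16133), sizes were scaled by TMM in edgeR 4.0.16 (R 4.3.3), and a two-sided exact binomial test was run in scipy 1.17.1 (Python 3.11.15) with Benjamini-Hochberg adjustment at 0.05 and exact 95% intervals. It was tested on simulated data with counting error alone, which cannot show how it behaves with variation between animals. Alternatives were DESeq2 1.42.0 size factors, total or spike-in scaling, other minima, fold limits, the second table, TPM over nuclear protein-coding genes, and each animal alone. Both versions of the third exon were aligned with Biopython 1.88.

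The members and gene lists were chosen with earlier results of these data known. Per-animal values are given for carriers with a mean of 10 TPM or more, for the leading gene of each group and for those at 0. Transcripts are named where the leading one differs between quantifications or holds under 60%, and for Slc25a3. Another 1 carrier that these rules name and 1 marker gene enter the counts and sums but are not reported here. The genes Slc25a15, Slc25a2, Slc25a18, Slc25a1 and Slc25a16 fall outside this rule, as do the ratios between paralogs and the transcripts of Slc25a12, Slc25a13 and Slc25a47. All of these were chosen after their values were seen.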

Additional observations from a re-analysis of the deposited data

How the results depend on the processing

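The summed level of the carriers, 1728 TPM, was 2169 TPM by the second transcript table and 4142 when TPM was taken over nuclear protein-coding genes alone, and 1593 to 1864 with either animal left out. The share of Slc25a3, 53.6%, was 50.7% by the second table and 53.5% to 53.8% with either animal left out. The share on transcripts not annotated protein_coding, 7.65%, was 10.5% by the second table and 7.53% to 7.77% with either animal left out. The count of carriers at 1 TPM or more was 35 with either animal left out and 35 by the second table, 36 at a minimum of 0.5 TPM and 31 at 2 TPM. The 3 carriers that differed between libraries became 10 with total gene counts, 1 higher in animal 1 and 9 higher in animal 2, and 0 at a minimum of 1.5-fold or 2-fold. The 1831 genes that differed became 3371, 407 and 222 under these settings. Scaling by total counts moved the median log2 ratio of all genes by -0.08, and 11.2% of its calls were higher in animal 1, against 41.9% with TMM and 28.2% with spike-ins. Slc25a22 kept its call under every scaling run. The same 3 carriers were called with DESeq2 size factors, without a minimum and at 100 reads, and the second table added Slc25a51. Spike-in scaling called 4 carriers, 2 of them among the 3. The cause of these changes was not tested. No paired analysis was possible because both libraries belong to 1 group. Depth limits the 7 carriers under 20 reads, which were not tested, and 2 animals limit every SD.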

Other observations

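Among the 44 carriers 3 pairs lie within 20000 bases of each other on the same chromosome, and these pairs were looked at after their values were seen. Slc25a41 and Slc25a23, both ATP-Mg/phosphate carriers on the minus strand of chromosome 17 with a gap of 2056 bases, averaged 0 and 25.5 TPM. Slc25a54 and Slc25a24, on the plus strand of chromosome 3 with a gap of 6461 bases, averaged 0 and 2.17 TPM. Slc25a29, a carrier of basic amino acids, and Slc25a47 run in opposite directions from starts 162 bases apart on chromosome 12 and averaged 3.37 and 2.69 TPM. The level of Slc25a47 lay mostly on processed transcripts, of which Slc25a47-205 and Slc25a47-204 held 38.1% and 33.8% by the second transcript table. The protein-coding Slc25a47-201 held 17.8%. Its annotated start at 108851129 lies far downstream of the gene's start at 108836046.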
